A study of Homo sapiens with 7 samples.

Results

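The nuclear receptor genes of HepG2, a cell line established from a human liver cancer (hepatocellular carcinoma), were examined as a family of possible sites of PPARα on the genome. The set was 46 genes, chosen by name as members of this transcription factor family, and all 46 were found among 59084 genes of the RefSeq gene table, 19974 of them protein-coding. It includes PPARA, ESR1 and ESR2, the genes of the 3 receptors that were also introduced on vectors. A called peak belonged to a gene when its summit lay inside the gene's span or within 50 kb of it, a stretch called the gene's window here. Of 152915 peaks on chromosomes 1 to 22 and X in 6 peak lists, 640 lay in these windows, and peaks that touched one another across the lists made 396 regions out of 92292.

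All 6 lists came from chromatin immunoprecipitation and sequencing with an antibody to PPARα. In the PPARα+ERα group, cells received expression vectors for tagged human PPARα and for ERα under a CMV promoter, then PPT, an ERα-selective agonist, at 10 nM for 45 min, and after it the PPARα agonist at 10 µM for 2 h. In the PPARα+ERβ group, cells received the PPARα vector and a vector for Flag-tagged ERβ, then DPN, an ERβ-selective agonist, at 10 nM for 45 min, and after it the same PPARα agonist at 10 µM for 2 h. In the PPARα group, cells received the PPARα vector and the PPARα agonist at 10 µM for 2 h, with neither an estrogen receptor vector nor its agonist. The labels spell the PPARα agonist both Wy13643 and Wy14643, and agonists were added 48 h after transfection. Each group had 2 libraries, numbered here in order of deposit, and nothing in the labels says that they came from separate cultures. All groups thus carry extra PPARα and its agonist, each estrogen receptor was given only together with its own agonist, and an effect of the receptor and of the agonist cannot be told apart. A library made without antibody had no peak list, and the label HepG2 could not be checked against marker genes, because a peak list holds no expression.

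Nuclear receptors are transcription factors that bind DNA through zinc fingers, and many are switched on by a lipid, hormone or vitamin that sits in a pocket of the protein. PPARs bind DNA as dimers with a retinoid X receptor, at repeats of the element AGGTCA that point the same way and are separated by 1 base. Estrogen receptors bind as dimers of their own kind at the same element arranged as a palindrome, GGTCA and TGACC with 3 bases between. In liver cells, members of the family often act on each other's genes, so that receptors form a network around HNF4A, the bile acid receptor NR1H4 and the repressor NR0B2.

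No promoter of a member was crossed by a peak in any of the 6 libraries. The RefSeq promoter table, with 250 bases before and 50 after each transcript start of GRCh38.p14, held 96 promoters of 41 members. VDR, HNF4G, NR2F6, NR4A2 and NR0B2 have no entry. Among 22132 promoters of protein-coding genes, 323 were crossed in at least 1 library, which is 1.46%, and between 0.307% and 0.569% were crossed in any 1 library. The promoters that came nearest to a peak are printed because they mark how close the called sites came to a start, and an ESR2 promoter is printed because ESR2 was 1 of the transfected receptors. Capitals mark AGGTCA on either strand, and each sequence runs 5′ to 3′ on the gene's own strand. The nearest peaks were 317 bp from the ESRRG promoter, 364 bp from the RORB promoter, 425 bp from the NR1I3 promoter and 1392 bp from the ESR2 promoter.
ESRRG promoter, chr1:216723380-216723679, minus strand: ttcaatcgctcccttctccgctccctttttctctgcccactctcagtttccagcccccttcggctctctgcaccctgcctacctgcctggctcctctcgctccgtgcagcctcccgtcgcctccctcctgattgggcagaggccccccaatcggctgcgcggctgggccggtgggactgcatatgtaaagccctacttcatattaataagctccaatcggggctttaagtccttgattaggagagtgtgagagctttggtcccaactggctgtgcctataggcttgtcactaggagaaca
RORB promoter, chr9:74497085-74497384, plus strand: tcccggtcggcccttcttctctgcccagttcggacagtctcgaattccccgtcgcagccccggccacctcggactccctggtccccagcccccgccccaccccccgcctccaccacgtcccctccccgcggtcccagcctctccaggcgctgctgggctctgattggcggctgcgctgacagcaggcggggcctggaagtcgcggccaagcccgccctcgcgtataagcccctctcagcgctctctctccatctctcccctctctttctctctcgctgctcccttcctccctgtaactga
NR1I3 promoter, chr1:161238154-161238453, minus strand: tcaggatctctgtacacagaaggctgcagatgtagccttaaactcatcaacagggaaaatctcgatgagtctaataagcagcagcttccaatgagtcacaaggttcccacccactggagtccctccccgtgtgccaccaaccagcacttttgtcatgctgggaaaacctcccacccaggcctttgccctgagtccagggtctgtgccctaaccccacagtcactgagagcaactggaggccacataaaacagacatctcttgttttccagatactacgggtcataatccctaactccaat
ESR2 promoter, chr14:64294361-64294660, minus strand: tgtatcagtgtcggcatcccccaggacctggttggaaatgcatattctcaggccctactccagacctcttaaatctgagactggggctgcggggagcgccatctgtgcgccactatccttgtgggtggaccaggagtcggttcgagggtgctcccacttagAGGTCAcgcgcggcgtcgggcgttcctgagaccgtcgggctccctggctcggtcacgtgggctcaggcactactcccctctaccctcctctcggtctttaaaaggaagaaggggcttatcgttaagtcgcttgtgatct

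AGGTCA occurred on either strand in 16 of the 96 promoters of members, which is 16.7%, against 11.9% of all 22132 promoters. Those 16 belong to 11 of the 41 members, namely ESR2, ESRRG, NR0B1, NR1H3, NR1H4, NR2E1, NR5A2, PPARG, RARA, RARB and RXRG. Promoters of 1 gene can overlap, so that 1 copy of the element can count more than once, as it does at ESR2. The shares by promoter therefore cannot be read as a trait of the family. In the ESR2 promoter shown, the element begins 89 bases before the start. The repeat of AGGTCA with 1 base between was in no member promoter and in 0.0226% of all promoters. The palindrome with 3 bases between was likewise in no member promoter, against 0.0361% of all. A match is a description of the letters, and no match says only that these exact letters are not in the window. The repeat contains whole copies of the element, so a promoter with the repeat also counts under the element. The palindrome contains only a shortened copy, so a promoter with it need not. No genome sequence was used here, so the DNA under the peaks themselves was not read.

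A start could be compared with 362 of the 396 regions, and 264 of those lay nearer to a start of the member than to one of another protein-coding gene. Within 1 kb of a member's own start lay 3 regions. At ESRRG, the gene of an orphan receptor of oxidative metabolism, chr1:216723996-216724377 had its summit at −811 bp from the start and was called in both PPARα libraries, at 2.81-fold and 4.24-fold over local background. At RORB, an orphan receptor best known from retina and brain, chr9:74496296-74496721 had its summit at −745 bp and was called in both PPARα libraries, at 3.27-fold and 4.12-fold. At NR1I3, which encodes the xenobiotic sensor CAR, a region at −777 bp was called in PPARα+ERβ library 2 at 8.43-fold and in PPARα library 2 at 11.8-fold. Neither PPARα+ERα library had a peak at these 3 regions. Whether a region lies in an exon, an intron or an untranslated stretch is not given here, since the gene table holds spans only.

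The lists differed in length and in the kind of site they hold. They held 24505 and 27544 peaks with PPARα+ERα, 17457 and 23302 with PPARα+ERβ, and 23805 and 36302 with PPARα alone. The fold of a peak is the authors' enrichment of its summit over the local background estimated by the peak caller. The whole number of fragments stacked at each summit, and the local background there, were worked back from the deposited fold and −log10 p. Local background is given in multiples of the lowest level of its list, which is the genome-wide level. At that level, 1 fragment fell on every 780 and 725 bp with PPARα+ERα, 537 and 450 bp with PPARα+ERβ, and 537 and 471 bp with PPARα alone, which is the only measure of depth the lists give. Folds were not compared between lists.

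PPARA, which encodes the precipitated receptor itself, had 1 and 3 peaks in its window in the PPARα+ERα libraries, 1 and 3 in the PPARα+ERβ libraries and 2 and 4 in the PPARα libraries. The groups overlapped in number, but no PPARα+ERα peak lay at the place of a peak of another group. A region inside the gene, chr22:46194240-46194583, was called in both PPARα+ERβ libraries at 3.34-fold and 3.64-fold and in both PPARα libraries at 3.69-fold and 3.83-fold. It stood on a local background of 19.3 to 20.9 times the genome-wide level in these 4 libraries. The neighbouring region chr22:46218835-46219249, also inside PPARA, was called in PPARα+ERβ library 2 at 3.70-fold and in both PPARα libraries at 4.82-fold and 4.44-fold, over a background of 1.83 to 2.02 times. Each of the 4 PPARα+ERα peaks of the window stood alone, seen in 1 library only, at 5.49-fold in library 1 and at 8.46-fold, 3.92-fold and 5.20-fold in library 2. PPARA therefore had 2 regions called in both PPARα libraries, 1 in both PPARα+ERβ libraries and none in both PPARα+ERα libraries.

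ESR1, which encodes ERα, had 5 and 6 peaks with PPARα+ERα, 5 and 8 with PPARα+ERβ and 5 and 6 with PPARα alone. The 35 peaks made 20 regions, and the numbers overlapped in all 3 groups. Region chr6:151670417-151670777, inside the gene, was called at 5.40-fold and 5.62-fold with PPARα+ERα and at 7.44-fold and 5.57-fold with PPARα+ERβ, and in neither PPARα library. It was the only region of the 396 called in both libraries of both estrogen receptor groups. Region chr6:151739860-151740300 was called only with PPARα+ERα, at 7.33-fold and 7.15-fold, from 10 fragments in each library. Region chr6:151770028-151770557 was called at 3.90-fold and 3.58-fold with PPARα+ERβ and at 5.10-fold and 6.67-fold with PPARα alone, and in neither PPARα+ERα library. The same 4 libraries called chr6:152024816-152025220 at 2.04-fold to 2.32-fold, on a background of 70.0 to 74.2 times the genome-wide level. In PPARα alone, both libraries called chr6:151887042-151887380 at 2.94-fold, on 41.7 and 42.2 times. Past the end of ESR1 by 40107 bp, inside the neighbouring gene SYNE1, chr6:152169568-152170000 was called at 5.43-fold and 5.50-fold with PPARα+ERβ and at 7.49-fold in PPARα library 1. The other 14 regions of the window had no group with both libraries.

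ESR2, which encodes ERβ, had few peaks, with 2 and 2 in the PPARα+ERα libraries, 1 and 1 with PPARα+ERβ, and 0 and 2 with PPARα alone. Of its 6 regions, chr14:64355376-64355749, outside the gene by 17119 bp, was called in both PPARα+ERβ libraries at 3.20-fold and 2.76-fold and in PPARα library 2 at 4.07-fold. Every other region at ESR2 was called in 1 library. The one nearest to the printed promoter, chr14:64296052-64296356, was a PPARα+ERα library 1 peak of 10 fragments at 4.40-fold. In a peak list, fragments of the chromosome and of a vector cannot be told apart wherever the vector carries the same sequence as the gene. Which parts of the spans of PPARA, ESR1 and ESR2 the vectors carry is not given here.

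**Figure D1:**
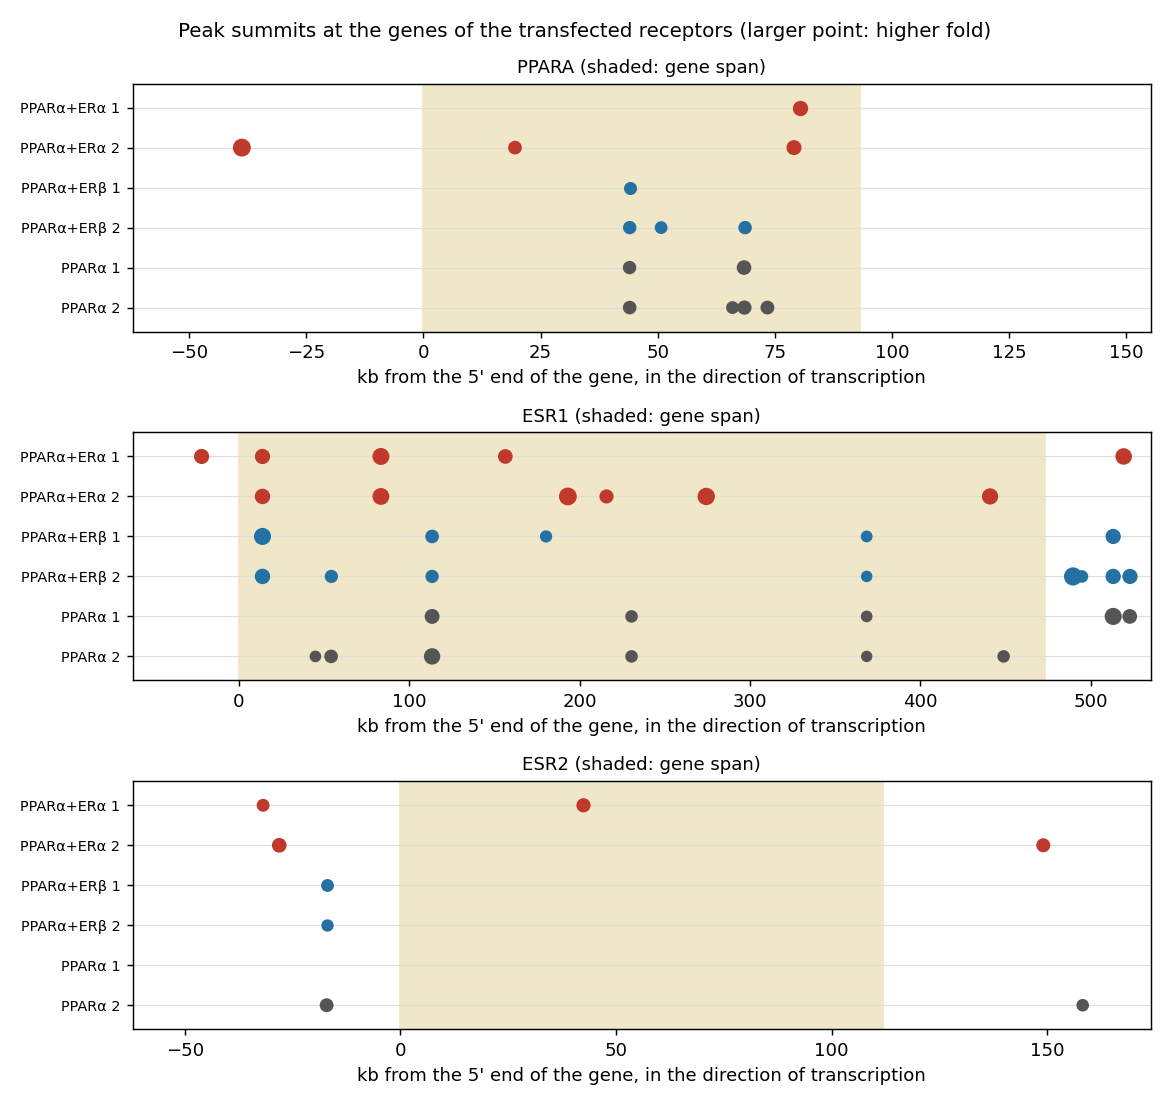
Peak summits in each of the 6 libraries (rows) along the windows of PPARA, ESR1 and ESR2, with distance in kb from the gene's start in the direction of transcription on the horizontal axis and the gene span shaded; larger points have a higher fold. PPARα+ERα summits line up with those of another group at 1 place, in ESR1 with PPARα+ERβ, whereas both PPARα+ERβ and both PPARα rows line up at 1 place in PPARA and 2 in ESR1.

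PPARD and PPARG, the other PPAR genes, encode the broadly expressed receptor of fatty acid use and the regulator of fat cell formation. PPARD had 5 and 5 peaks with PPARα+ERα, 0 and 1 with PPARα+ERβ, and 1 and 4 with PPARα alone. The PPARα+ERα libraries lay above the others at PPARD, yet agreed at only chr6:35471056-35471469, 43185 bp outside the gene, at 5.04-fold and 7.05-fold. At another place inside the gene, chr6:35347524-35347923, PPARα+ERβ library 2 had a peak at 5.71-fold and both PPARα libraries had one, at 5.39-fold and 6.95-fold. PPARG had 2 and 8 peaks with PPARα+ERα, 1 and 2 with PPARα+ERβ, and 2 and 5 with PPARα alone. Inside PPARG, chr3:12417478-12417918 was the only region of the 396 called in 5 libraries, at 11.7-fold in PPARα+ERα library 2, 10.4-fold and 14.5-fold with PPARα+ERβ, and 15.7-fold and 8.80-fold with PPARα alone. It stood on 15 to 26 fragments over a background of 1.21 to 1.28 times. Nearby in the gene, chr3:12406185-12406547 was called only with PPARα+ERα, at 5.54-fold and 9.85-fold, and chr3:12390319-12390652 only with PPARα alone, at 2.98-fold and 3.81-fold.

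The retinoid X receptors are the obligate partners of PPARs on DNA. None of their 3 genes had a region called in both PPARα+ERα libraries, which 38.0% of all protein-coding genes had. RXRA, the main form in liver, had 0 and 0 peaks with PPARα+ERα, 2 and 1 with PPARα+ERβ, and 2 and 2 with PPARα alone. The region that these 4 libraries shared was chr9:134302863-134303362, 23302 bp upstream, at 5.05-fold and 5.27-fold with PPARα+ERβ and at 6.30-fold and 9.54-fold with PPARα alone, each on background at the genome-wide level. RXRB had 0 and 1 peaks with PPARα+ERα, 1 and 2 with PPARα+ERβ, and 1 and 4 with PPARα alone. Its regions were upstream, with chr6:33233092-33233437 called at 3.47-fold and 4.46-fold with PPARα+ERβ and at 3.76-fold in PPARα library 2. The other, chr6:33226766-33227134, was called at 2.06-fold in PPARα+ERβ library 2 and at 2.70-fold and 3.01-fold with PPARα alone. RXRG ran the other way from RXRA, with 3 and 1 peaks with PPARα+ERα and 0 in every PPARα+ERβ and PPARα library, although its 4 peaks made 4 separate regions.

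Among the sensors of sterols, bile acids and xenobiotics, NR1H4, the bile acid receptor FXR, had 3 and 5 peaks with PPARα+ERα, 1 and 3 with PPARα+ERβ, and 1 and 2 with PPARα alone. Both PPARα+ERα libraries called chr12:100506144-100506523 inside the gene at 9.35-fold and 5.64-fold, and chr12:100514789-100515180 inside it at 10.8-fold and 7.75-fold. At chr12:100514789-100515180, PPARα+ERβ library 2 also had a peak at 5.27-fold, and neither region was called with PPARα alone. A further one, chr12:100575116-100575492 in the neighbouring gene GAS2L3, was called at 6.99-fold and 10.1-fold with PPARα+ERα only. PPARα+ERβ and PPARα met at another place, chr12:100432378-100432722, 41319 bp outside the gene, at 4.12-fold and 4.43-fold with PPARα+ERβ and at 5.13-fold and 6.78-fold with PPARα alone. NR1H3, the oxysterol receptor LXRα, had 1 of the 2 regions in the whole set called in both PPARα+ERβ libraries and nowhere else, chr11:47318707-47319147 in MADD, at 4.10-fold and 4.25-fold from 6 and 7 fragments. Scaled to the depth of the PPARα+ERα lists, this region would not pass the threshold of both, so its absence there says little. Upstream of NR1H3, chr11:47235556-47235941 in DDB2 was called at 3.13-fold in PPARα+ERβ library 2 and at 3.15-fold and 5.14-fold with PPARα alone. NR1I3, the CAR gene, was occupied only in the PPARα group, at chr1:161179815-161180159 with 4.03-fold and 5.06-fold. NR1H2, encoding LXRβ, and NR1I2, encoding the drug sensor PXR, had 6 and 7 peaks over all libraries and no region shared by both libraries of a group.

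Of the receptors of retinoic acid, thyroid hormone and vitamin D, RARB had the most peaks, in the longest window of the family at 869 kb. RARB, a retinoic acid receptor that is itself switched on by retinoic acid, had 6 and 5 peaks with PPARα+ERα, 5 and 12 with PPARα+ERβ, and 11 and 16 with PPARα alone. Its 55 peaks made 29 regions, of which 12 were called in both libraries of a group. PPARα+ERα shared none of them with the other groups, and its pair were chr3:24957863-24958275 at 7.99-fold and 4.33-fold and chr3:24997936-24998292 at 7.49-fold and 10.6-fold, both inside the gene. PPARα+ERβ and PPARα shared 3. The furthest downstream, inside the gene near its end, was chr3:25594840-25595262 at 4.75-fold and 4.99-fold with PPARα+ERβ and at 5.20-fold and 6.88-fold with PPARα alone. The others were chr3:24803318-24803682, upstream, at 4.55-fold and 3.99-fold with PPARα+ERβ and 6.81-fold and 6.20-fold with PPARα alone, and chr3:25548643-25549083 at 5.85-fold and 5.83-fold with PPARα+ERβ and 4.99-fold and 7.07-fold with PPARα alone. RARA had chr17:40271506-40272037 at 3.09-fold and 3.76-fold with PPARα+ERα. In its window, inside TOP2A, chr17:40404451-40405006 was called at 3.46-fold and 5.15-fold with PPARα+ERβ and at 5.67-fold and 10.9-fold with PPARα alone. THRB, encoding the thyroid hormone receptor that prevails in liver, had 4 and 2 peaks with PPARα+ERα, 6 and 3 with PPARα+ERβ, and 3 and 4 with PPARα alone. Upstream of THRB, chr3:24539507-24540064 was called at 10.7-fold and 12.5-fold with PPARα+ERβ and at 8.22-fold and 11.6-fold with PPARα alone. Inside the gene, chr3:24456334-24456859 was called at 6.75-fold and 4.73-fold with PPARα+ERβ and at 7.19-fold and 8.29-fold with PPARα alone. Also inside THRB, chr3:24211199-24211590 was called at 3.41-fold in PPARα+ERβ library 1 and at 2.80-fold and 4.25-fold with PPARα alone. RARG, THRA and VDR, the vitamin D receptor gene, had 4, 7 and 6 peaks over all libraries and no region in both libraries of a group. THRA shares its window with NR1D1, and the same regions count for both genes.

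REV-ERB and ROR receptors compete for the same elements in the circadian clock, with REV-ERBs as repressors and RORs as activators. NR1D1, encoding REV-ERBα, had 1 and 4 peaks with PPARα+ERα, 0 and 0 with PPARα+ERβ, and 0 and 1 with PPARα alone, all in regions of 1 library. NR1D2, encoding REV-ERBβ, had 1 and 3 peaks with PPARα+ERα, 1 and 2 with PPARα+ERβ, and 3 and 3 with PPARα alone. Inside NR1D2, 2127 bp past its start, chr3:23948118-23948535 was called in PPARα+ERβ library 1 at 2.92-fold and with PPARα alone at 3.99-fold and 6.04-fold. Beyond the gene, chr3:24007869-24008232 was called at 3.78-fold in PPARα+ERβ library 2 and at 4.87-fold and 9.02-fold with PPARα alone. PPARα+ERα had chr3:23900643-23901194 in NKIRAS1 at 3.17-fold and 2.86-fold, over a background of 19.3 times, the highest of any PPARα+ERα peak in the windows. RORA had 6 and 8 peaks with PPARα+ERα, 1 and 6 with PPARα+ERβ, and 1 and 8 with PPARα alone. Inside RORA, chr15:60743670-60744100, was called at 10.4-fold and 11.7-fold with PPARα+ERβ and at 15.5-fold and 18.0-fold with PPARα alone, and in neither PPARα+ERα library. Both PPARα+ERα libraries called 3 other regions of RORA. These were chr15:60539342-60539737 at 7.91-fold and 9.16-fold, chr15:60878180-60878686 at 6.44-fold and 5.54-fold, and chr15:61039749-61040122 at 8.66-fold and 7.80-fold, which PPARα+ERβ library 2 also had at 4.29-fold. RORB had 2 and 2 peaks with PPARα+ERα, 3 and 4 with PPARα+ERβ, and 7 and 7 with PPARα alone, so that PPARα+ERα lay below and PPARα above. Its region chr9:74635957-74636469, inside the gene, was called at 15.7-fold and 17.2-fold with PPARα+ERβ and at 22.1-fold and 27.5-fold with PPARα alone, from 26 to 49 fragments over a background of 1.21 to 1.24 times. RORB had 6 regions in both PPARα libraries, 3 of them also in both PPARα+ERβ libraries, and none in both PPARα+ERα libraries. Inside RORB, chr9:74568700-74569227 was called at 4.65-fold and 4.75-fold with PPARα+ERβ and at 5.88-fold and 8.14-fold with PPARα alone, and nearby chr9:74571403-74571808 with PPARα alone at 3.82-fold and 4.90-fold. Beyond it, in TRPM6, chr9:74723506-74723930 was called at 3.85-fold and 5.84-fold with PPARα+ERβ and at 5.15-fold and 9.60-fold with PPARα alone.

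HNF4A, the master regulator of hepatocyte genes, had 6 and 4 peaks with PPARα+ERα, 1 and 2 with PPARα+ERβ, and 1 and 2 with PPARα alone. The PPARα+ERα libraries stood above every other library. They agreed at chr20:44411892-44412306 at 6.17-fold and 4.96-fold, at chr20:44417971-44418300 at 9.24-fold and 8.74-fold, and at chr20:44461293-44461631 at 12.6-fold and 10.7-fold. The last of these lies 26866 bp outside HNF4A and the others inside it, and none had a peak in a PPARα+ERβ or PPARα library. Another region inside HNF4A, chr20:44409465-44409854, was called at 2.53-fold in PPARα+ERβ library 2 and at 2.92-fold and 3.78-fold with PPARα alone. The 3 PPARα+ERα regions had a local background of 2.74 to 11.6 times the genome-wide level and 22 to 36 fragments, whereas this one had 70.0 to 71.2 times and 124 to 182 fragments. HNF4G, its close relative, had 1 and 3 peaks with PPARα+ERα, 5 and 4 with PPARα+ERβ, and 4 and 3 with PPARα alone, and its 4 occupied regions were all of PPARα+ERβ or PPARα. Within HNF4G, chr8:75479171-75479592 was called at 4.98-fold and 3.38-fold with PPARα+ERβ and at 6.88-fold in PPARα library 2, and chr8:75508370-75508709 at 2.25-fold in PPARα+ERβ library 1 and 2.62-fold and 3.46-fold with PPARα alone. Outside it, chr8:75577676-75578279 was called at 4.55-fold and 4.51-fold with PPARα+ERβ and at 5.64-fold and 3.54-fold with PPARα alone. Further out, chr8:75598097-75598521 was called at 3.06-fold and 2.91-fold with PPARα+ERβ and at 2.94-fold in PPARα library 1.

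Among the other NR2 genes, NR2C2, encoding the orphan receptor TR4, had 4 and 4 peaks with PPARα+ERα, 1 and 0 with PPARα+ERβ, and 0 and 3 with PPARα alone. It was the only member occupied in PPARα+ERα and in no other group, at chr3:14925112-14925465 in FGD5 with 6.49-fold and 8.66-fold and at chr3:15019025-15019515 inside NR2C2 with 6.66-fold and 6.50-fold. NR2C1, encoding the related TR2, had 3 and 0 peaks with PPARα+ERα, 2 and 4 with PPARα+ERβ, and 4 and 4 with PPARα alone. Inside NR2C1, chr12:95037901-95038308 was called at 5.28-fold and 5.54-fold with PPARα+ERβ and at 3.97-fold and 4.31-fold with PPARα alone. Near it in the gene, chr12:95026207-95026648 was called at 3.40-fold in PPARα+ERβ library 2 and at 4.32-fold and 2.71-fold with PPARα alone, and chr12:95029228-95029574 with PPARα alone at 3.47-fold and 6.09-fold. NR2F1 and NR2F2 encode the COUP-TFs, which bind the same repeats as PPARs and often repress them. NR2F1 had 0 and 2 peaks with PPARα+ERα, 2 and 3 with PPARα+ERβ, and 3 and 4 with PPARα alone, and NR2F2 had 0 and 1 peaks with PPARα+ERα, 2 and 2 with PPARα+ERβ, and 2 and 2 with PPARα alone. Upstream of NR2F1, chr5:93552672-93553141 was called at 2.49-fold and 2.62-fold with PPARα+ERβ and at 3.34-fold and 3.88-fold with PPARα alone. At NR2F2, chr15:96316529-96317002 was called at 2.2-fold in PPARα+ERβ library 1 and at 2.91-fold and 4.71-fold with PPARα alone, and chr15:96337776-96338156 inside the gene at 2.24-fold and 2.19-fold with PPARα+ERβ and 2.31-fold in PPARα library 1. NR2E1, a receptor of neural stem cells, had chr6:108118325-108118693 at 9.58-fold and 6.71-fold with PPARα+ERβ and at 5.07-fold and 4.77-fold with PPARα alone. NR2E3 and NR2F6 were each occupied with PPARα+ERα and with PPARα alone, at different places. For NR2E3 these were chr15:71834607-71835058 at 8.71-fold and 7.19-fold with PPARα+ERα and chr15:71799120-71799463 at 4.41-fold and 6.56-fold with PPARα alone. For NR2F6 they were chr19:17266683-17267012 at 7.65-fold and 7.78-fold with PPARα+ERα and chr19:17185375-17185717 at 3.90-fold in PPARα+ERβ library 2 and 4.42-fold and 5.79-fold with PPARα alone.

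Of the steroid and estrogen-related receptors, PGR, the progesterone receptor gene and a target of ERα in breast and uterus, had 4 and 1 peaks with PPARα+ERα, 2 and 3 with PPARα+ERβ, and 5 and 6 with PPARα alone. Upstream of PGR, chr11:101148676-101149050 was called at 5.49-fold and 5.14-fold with PPARα+ERβ and at 5.00-fold and 6.01-fold with PPARα alone. Inside PGR, chr11:101113130-101113442 was called only with PPARα+ERα at 3.99-fold and 5.84-fold, from 5 and 8 fragments. PPARα alone called chr11:101055429-101055961 at 3.20-fold and 3.59-fold and chr11:101097380-101097793 at 2.51-fold and 3.73-fold, both also inside PGR, the last on a background of 61.4 and 57.9 times. NR3C1, the glucocorticoid receptor gene, had 2 and 4 peaks with PPARα+ERα, 1 and 2 with PPARα+ERβ, and 3 and 2 with PPARα alone. Inside NR3C1, chr5:143319800-143320191 was called only with PPARα+ERα, at 5.33-fold and 7.80-fold. Next to it, chr5:143314047-143314438 was called at 5.11-fold and 5.68-fold with PPARα+ERβ and at 5.95-fold and 4.02-fold with PPARα alone. Beyond the gene, chr5:143241667-143242167 was called at 3.84-fold in PPARα+ERβ library 2 and at 3.08-fold and 3.61-fold with PPARα alone. ESRRA, a partner of PGC-1 in mitochondrial gene control, had 0 and 2 peaks with PPARα+ERα, 0 and 0 with PPARα+ERβ, and 2 and 3 with PPARα alone. Its region chr11:64309436-64310047, inside the gene, was called with PPARα alone at 2.57-fold and 6.91-fold. Outside it, in PLCB3, chr11:64258155-64258550 was called with PPARα alone at 4.34-fold and 6.28-fold. ESRRG had 5 and 8 peaks with PPARα+ERα, 4 and 5 with PPARα+ERβ, and 8 and 10 with PPARα alone, in 23 regions. Both PPARα+ERα libraries called 3 of them, from 4 to 9 fragments, and no library of another group called any of those 3. Both PPARα+ERβ and both PPARα libraries called chr1:216879490-216880705 in ESRRG, at 8.35-fold and 10.6-fold with PPARα+ERβ and at 8.22-fold and 5.50-fold with PPARα alone. Within ESRRG, chr1:216908830-216909218 was called at 7.26-fold and 6.68-fold with PPARα+ERβ and at 6.64-fold in PPARα library 1. Outside it, both PPARα libraries and no other called chr1:217176584-217176994 at 4.35-fold and 6.10-fold and chr1:216465554-216465904 at 3.17-fold and 3.69-fold. NR3C2, the mineralocorticoid receptor gene, had 2 and 4 peaks with PPARα+ERα, 3 and 2 with PPARα+ERβ, and 3 and 4 with PPARα alone, with no region in both PPARα+ERα libraries. Inside NR3C2, chr4:148082167-148082680 was called at 7.02-fold in PPARα+ERβ library 2 and at 6.30-fold and 5.37-fold with PPARα alone, and chr4:148297891-148298248 with PPARα alone at 3.41-fold and 3.69-fold. There too, chr4:148400789-148401476 was called at 2.12-fold and 2.40-fold with PPARα+ERβ and at 3.14-fold in PPARα library 1. ESRRB had 11 peaks in 11 separate regions.

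The NR4A receptors, which are induced within minutes to hours by many stimuli, had 1 region each that was called in both libraries of a group. None was called in both PPARα+ERα libraries, where 38.0% of all protein-coding genes had such a region. Upstream of NR4A1, chr12:51977118-51977622 in ACVR1B was called at 5.31-fold and 10.2-fold with PPARα+ERβ and at 9.41-fold and 14.0-fold with PPARα alone. For NR4A2, chr2:156366506-156366909 was called at 5.91-fold and 5.39-fold with PPARα+ERβ and at 6.69-fold in PPARα library 1. Inside NR4A3, chr9:99841233-99841651 was called at 4.34-fold and 3.27-fold with PPARα+ERβ and at 4.24-fold and 6.62-fold with PPARα alone.

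NR0B2, the gene of the repressor SHP that bile acids induce through NR1H4, had 3 and 3 peaks with PPARα+ERα, 2 and 2 with PPARα+ERβ, and 1 and 3 with PPARα alone. PPARα+ERα had chr1:26887001-26887579 in GPN2 at 4.66-fold and 6.62-fold, PPARα+ERβ had chr1:26901065-26901412 in NUDC at 4.90-fold and 5.39-fold, and PPARα+ERβ with PPARα had chr1:26861865-26862286 at 4.08-fold and 3.61-fold with PPARα+ERβ and at 4.52-fold and 6.91-fold with PPARα alone. NR5A2, encoding LRH-1, a liver and pancreas activator of bile acid synthesis genes, had 1 and 0 peaks with PPARα+ERα, 1 and 1 with PPARα+ERβ, and 5 and 9 with PPARα alone. Inside NR5A2, chr1:200074742-200075103 was called in 4 libraries, at 7.19-fold in PPARα+ERα library 1, 8.20-fold in PPARα+ERβ library 1 and 8.19-fold and 8.35-fold with PPARα alone. Outside the gene, PPARα alone had chr1:200182417-200182760 at 3.67-fold and 3.69-fold and chr1:200220251-200220583 at 3.22-fold and 3.48-fold. NR6A1, an orphan receptor of germ cells, had 3 and 6 peaks with PPARα+ERα, 5 and 7 with PPARα+ERβ, and 5 and 6 with PPARα alone. Inside NR6A1, chr9:124696169-124696535 was called at 10.6-fold in PPARα+ERα library 1 and at 7.78-fold and 5.75-fold with PPARα+ERβ, and in neither PPARα library. In the same gene, chr9:124711201-124711663 was called only with PPARα+ERα, at 4.33-fold and 5.39-fold, and chr9:124739000-124739509 at 4.13-fold and 4.22-fold with PPARα+ERβ and 5.87-fold and 9.45-fold with PPARα alone. The neighbouring NR5A1, encoding SF-1, shares chr9:124538907-124539349 with it, at 6.05-fold and 6.02-fold with PPARα+ERβ and 6.59-fold and 6.18-fold with PPARα alone. On its far side NR5A1 had chr9:124461434-124461766 in ADGRD2, called only with PPARα+ERα at 7.05-fold and 6.84-fold. NR0B1, encoding the repressor DAX-1, was the only member with no peak in any library.

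**Figure D2:**
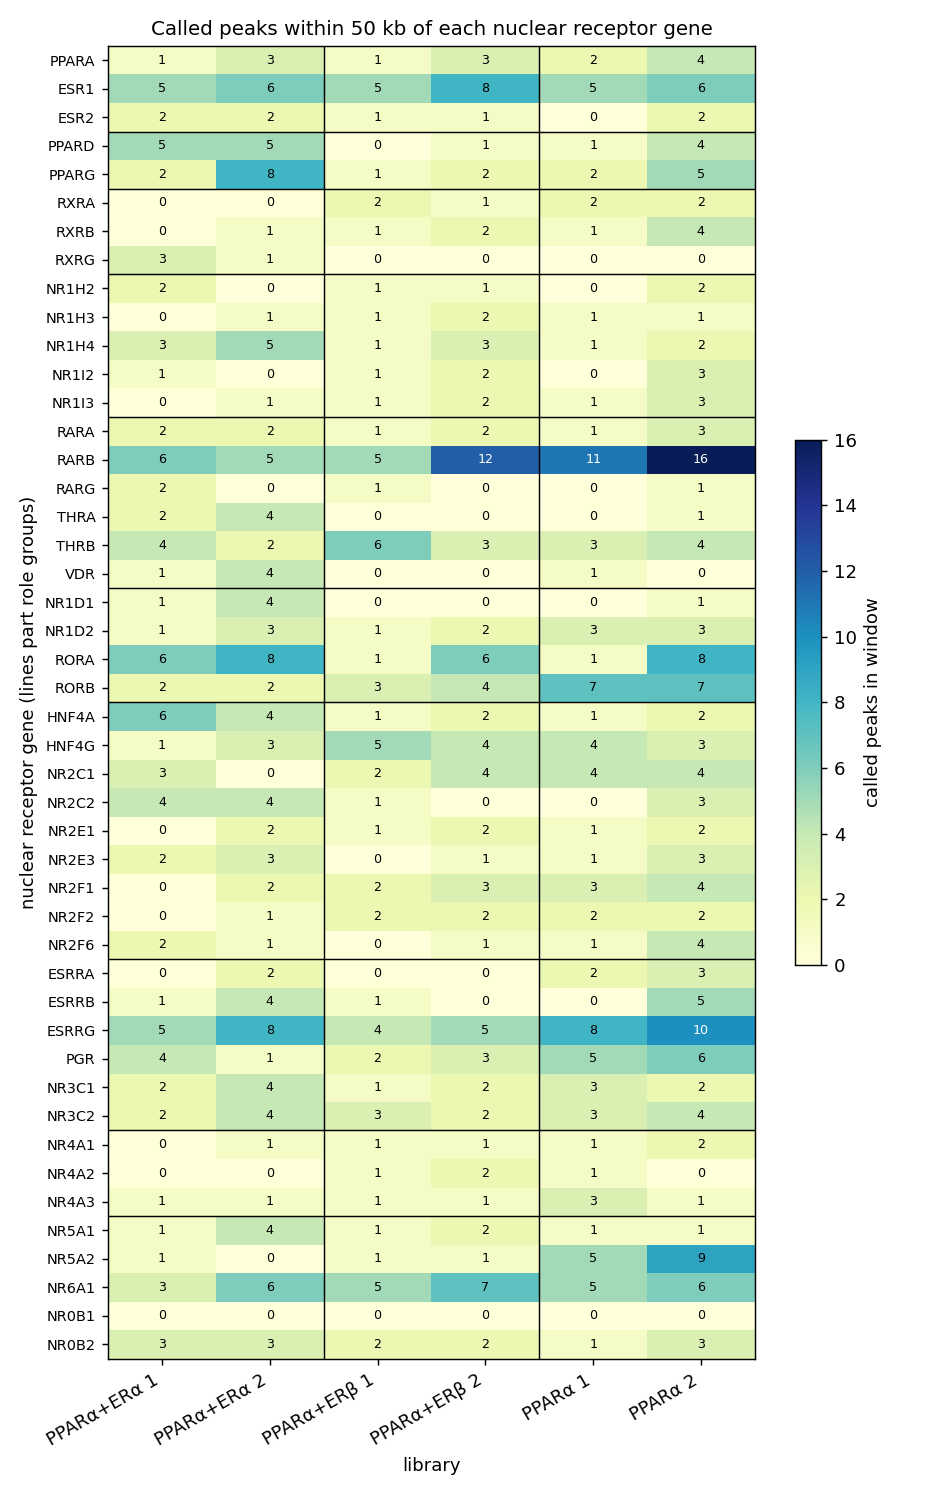
Number of called peaks within 50 kb of each of the 46 nuclear receptor genes (rows) in each of the 6 libraries (columns), with darker cells for more peaks. RARB reaches 16 and ESRRG 10 in PPARα library 2, and NR0B1 is at 0 in every library.

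Counted over the family, a gene was called occupied in a group when a region of its window had a peak from both libraries. With PPARα+ERα, 18 of 46 members were occupied, which is 39.1%, against 38.0% of all protein-coding genes. With PPARα+ERβ, 28 of 46 were occupied, which is 60.9%, against 46.6%. With PPARα alone, 34 of 46 were occupied, which is 73.9%, against 60.5%. The share with PPARα+ERα was thus near that of all protein-coding genes. The shares with PPARα+ERβ and PPARα were above it, on windows that are also longer, with a median of 151 kb for members against 124 kb for all protein-coding genes. Across the 46 members, the length of the window and the number of regions in it had a Pearson r of 0.903 and a Spearman rho of 0.741, as a description over genes that share the same 6 libraries. Measured per length, the windows held 10.2 ± 1.97 peaks per Mb with PPARα+ERα, 8.32 ± 2.25 with PPARα+ERβ and 12.3 ± 4.22 with PPARα alone (SD, n = 2 each). The windows of all protein-coding genes held 10.0 ± 0.828 per Mb with PPARα+ERα and 8.18 ± 1.76 with PPARα+ERβ. With PPARα alone they held 11.7 ± 3.81 (SD, n = 2 each). These SDs also carry the differences in list length between libraries, so they cannot place the family against all genes. Compared within each library, the family lay below all protein-coding genes in library 1 of PPARα+ERα and of PPARα+ERβ. The family lay above them in library 2 of these groups and in both PPARα libraries. Whether the family differs from all genes per length was not tested.

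**Figure D3:**
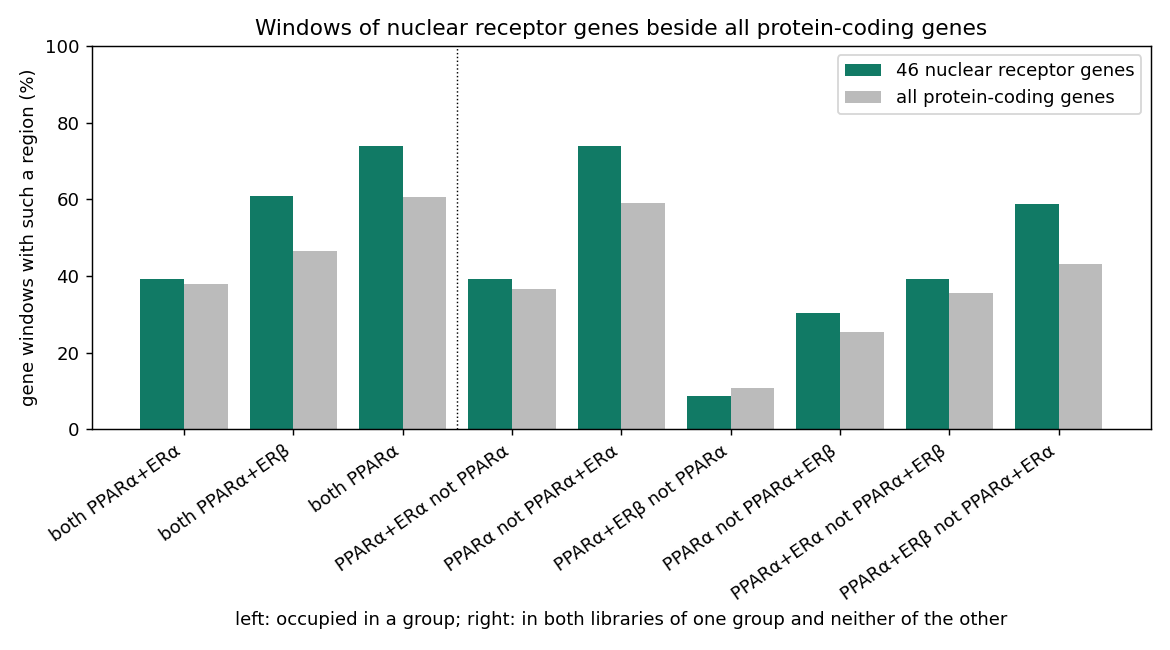
Share in percent of the 46 nuclear receptor genes and of all 19974 protein-coding genes that meet each call rule, for the 3 groups and the 6 directions of comparison. The largest gap is for regions that PPARα+ERβ had and PPARα+ERα lacked, with 58.7% of members and 43.0% of protein-coding genes.

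Set against PPARα alone, PPARα+ERα had a region of its own, in both of its libraries and in neither PPARα library, at 18 members, which is 39.1% against 36.7% of protein-coding genes. In the opposite direction, PPARα alone had such a region at 34 members, which is 73.9% against 58.9%. These were all of the members occupied in each group, and no region in the windows was called in both libraries of both groups. PPARα+ERα had 29 occupied regions and PPARα alone had 73. Without PPARα+ERα library 1 the counts of members were 38 with PPARα+ERα (71.1% of protein-coding genes) and 34 with PPARα alone (59.5%), which turns their order, and without PPARα+ERα library 2 they were 34 and 34. Over all 92292 regions, 165 were occupied in both groups, which is 1.86% of the PPARα+ERα regions and 0.938% of the PPARα regions. More peaks in both PPARα+ERα libraries than in either PPARα library were found at PPARD, RXRG, NR1H4, THRA, HNF4A and NR2C2, which is 13% of members against 11.6% of protein-coding genes. Fewer were found at RXRA, RARB, RORB, NR2C1, NR2F1, NR2F2, PGR and NR5A2, which is 17.4% against 20.4%. These shares lie near those of all genes.

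Set against PPARα alone, PPARα+ERβ had a region of its own at only ESR1, NR1H3, NR6A1 and NR0B2, which is 8.70% of members against 10.8% of protein-coding genes. PPARα alone had one against PPARα+ERβ at 14 members, ESR1, PPARG, NR1I3, RARB, RORB, NR2C1, NR2E3, NR2F1, ESRRA, ESRRG, PGR, NR3C2, NR5A2 and NR6A1, which is 30.4% against 25.3%. PPARα+ERβ and PPARα had 29 occupied regions in common, which is 67.4% of the 43 with PPARα+ERβ and 39.7% of the 73 with PPARα alone. Over all regions of the lists, the same shares were 63.9% and 37.1%. More peaks in both PPARα+ERβ libraries than in either PPARα library were found at no member, against 2.36% of protein-coding genes. Fewer were found at NR1D2, RORB, ESRRA, ESRRG, PGR and NR5A2, which is 13% against 14.6%. PPARα library 2 has the longest list. With lists cut to their 17457 strongest peaks each, 5 members had a region of PPARα+ERβ and not PPARα, which is 10.9% against 16.2% of protein-coding genes, and 11 had one of PPARα and not PPARα+ERβ, which is 23.9% against 13.7%. Over all protein-coding genes the larger share thus lay with PPARα+ERβ when lists were of equal length, and with PPARα when they were whole. Without PPARα+ERβ library 1, 21 members (45.7% against 38.8%) had a region of PPARα+ERβ and not PPARα and 18 (39.1% against 32.0%) had the opposite, which turns the order of the counts.

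Set against PPARα+ERβ, PPARα+ERα had a region of its own at 18 members, which is 39.1% against 35.5% of protein-coding genes. PPARα+ERβ had a region of its own against PPARα+ERα at 27 members, which is 58.7% against 43.0%. Scaled to the depth of the PPARα+ERα lists, 38 of these 40 regions would still pass their threshold. The regions of NR1H3 and NR2F2 would not. In the other direction, all 26 regions would pass, which was all but fixed beforehand, because the PPARα+ERβ lists are the deeper ones. The scaling took regions already called and treated their fragments as exact. It therefore cannot show whether the absence of a call is real. Without PPARα+ERα library 1 these counts were 38 and 27, and without PPARα+ERα library 2 they were 34 and 28, so their order turned in both. The region in ESR1 described above was the only one occupied in both, which is 3.45% of the PPARα+ERα regions and 2.33% of the PPARα+ERβ regions, against 3.46% and 3.01% over all regions. More peaks in both PPARα+ERα libraries than in either PPARα+ERβ library were found at ESR2, PPARD, RXRG, THRA, VDR, NR1D1, HNF4A, NR2C2, NR2E3 and NR0B2, which is 21.7% against 17.3%. Fewer were found at RXRA, RORB, HNF4G, NR2F2 and NR4A2, which is 10.9% against 11.8%. In each of the 3 comparisons, 2 libraries stand against 2, and the smallest two-sided p that an exact permutation test can give is 0.333. Over the 138 relations of 46 members and 3 comparisons, no Benjamini-Hochberg adjusted p was below 1, so no difference in the number of peaks at a member can pass a test.

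Taking the groups side by side, 12 members had an occupied region in all 3 groups, namely ESR1, PPARG, NR1H4, RARA, RARB, RORA, ESRRG, PGR, NR3C1, NR5A1, NR6A1 and NR0B2, and none of them had the same region occupied in all 3. Another 14 were occupied with PPARα+ERβ and with PPARα alone but not with PPARα+ERα, including PPARA, RXRA, RXRB, THRB, RORB, NR2F1, NR2F2, NR4A1 and NR4A3. PPARD, NR1D2, HNF4A, NR2E3 and NR2F6 were occupied with PPARα+ERα and with PPARα alone. NR2C2 was occupied in no group but PPARα+ERα, ESR2 and NR4A2 in no group but PPARα+ERβ, and NR1I3, ESRRA and NR5A2 in no group but PPARα. The 9 members occupied in no group were RXRG, NR1H2, NR1I2, RARG, THRA, VDR, NR1D1, ESRRB and NR0B1. The share of all protein-coding genes with each of these patterns was not counted, so the patterns cannot be read as traits of the family. Among the 12 members above, RARB, RORA, ESRRG and ESR1 have windows of 869, 841, 734 and 573 kb, against a median of 151 kb for members. By role, PPARα+ERα occupied none of the 3 RXR genes and none of the 3 NR4A genes, where PPARα+ERβ occupied 2 and 3 and PPARα 2 and 2. Of all protein-coding genes, 38.0% were occupied with PPARα+ERα, 46.6% with PPARα+ERβ and 60.5% with PPARα alone. Of the 2 other PPAR genes, PPARα+ERα occupied 2, PPARα+ERβ 1 and PPARα 2. Roles of 2 or 3 genes are too small to set against these shares. Whether roles differ was not tested.

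Libraries of a group shared a limited part of their regions. Of 396 regions, 252 were called in 1 library, 78 in 2, 35 in 3, 30 in 4, 1 in 5 and none in 6. The share of regions called in both libraries of a pair, out of those called in either, was 0.159 for the PPARα+ERα pair, 0.333 for the PPARα+ERβ pair and 0.401 for the PPARα pair, against 0.205, 0.334 and 0.414 over all regions of these pairs. Between PPARα+ERβ and PPARα libraries it averaged 0.319, with 0.227 to 0.399 over the 4 pairs, which overlaps the values within these groups, against 0.313 over all regions. Between PPARα+ERα and PPARα+ERβ libraries it averaged 0.0272, against 0.0310 over all regions, and between PPARα+ERα and PPARα libraries 0.00542, against 0.0163. Low overlap of PPARα+ERα with the other groups was thus a feature of the whole lists. The PPARα+ERα libraries thus resembled each other more than they resembled any other library, yet less than the libraries of the other groups did.

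The sites in the windows also differed in kind. The 211 PPARα+ERα peaks had a median of 10 fragments, over a local background with a median of 1.80 times and a highest value of 19.3 times the genome-wide level. The 173 PPARα+ERβ peaks had a median of 26 fragments over 7.0 times, and reached 74.2 times. The 256 PPARα peaks had a median of 43 fragments over 15.5 times, and reached 71.2 times. Above 20 times lay no PPARα+ERα peak, 25 PPARα+ERβ peaks, or 14.5%, and 89 PPARα peaks, or 34.8%. Whole lists showed the same order, with median backgrounds of 1.64 and 1.57 in the PPARα+ERα lists, 9.34 and 8.52 in the PPARα+ERβ lists and 13.5 and 15.7 in the PPARα lists. At the 144 regions called in more than 1 library, the highest local background was a median of 1.02 times the lowest, and 120 regions, or 83.3%, were within 1.1 times. The control behind these local backgrounds is not given in the sources used here. A control shared by the lists would make them agree by construction, so whether the agreement belongs to the libraries cannot be told. The part of local background in the differences between groups was not tested.

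**Figure D4:**
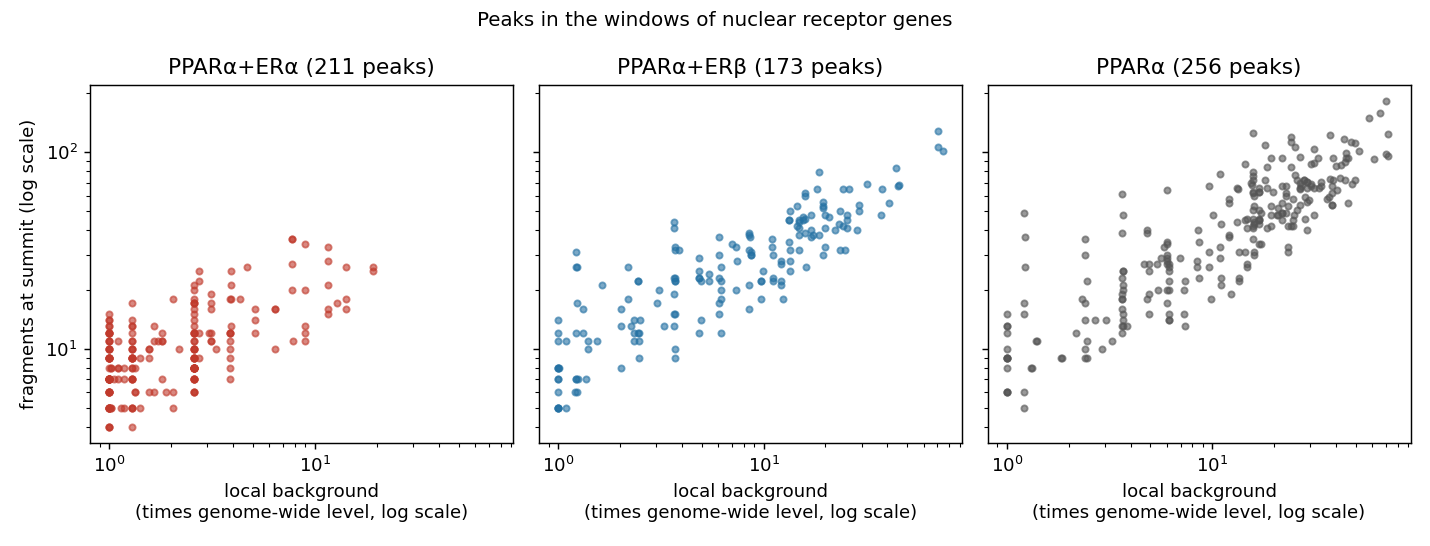
Fragments at the summit (vertical, log scale) against local background in multiples of the genome-wide level (horizontal, log scale) for every peak in the windows of nuclear receptor genes, with 211 PPARα+ERα, 173 PPARα+ERβ and 256 PPARα peaks. PPARα+ERα peaks reach at most 36 fragments and 19.3 times, whereas PPARα+ERβ and PPARα peaks extend to 128 and 182 fragments.

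Restricted to peaks with a local background of at most 3 times the genome-wide level, the counts drew close together. With PPARα+ERα 11 members were then occupied, which is 23.9% against 30.5% of protein-coding genes. With PPARα+ERβ 10 were, or 21.7% against 14.0%, and with PPARα alone 12 were, or 26.1% against 15.6%. A region of PPARα+ERα and not PPARα was found at 11 members, or 23.9% against 29.7%, and one of PPARα and not PPARα+ERα at 10, or 21.7% against 13.1%. For PPARα+ERβ and not PPARα the count was 3, or 6.52% against 3.53%, and for PPARα and not PPARα+ERβ it was 1, or 2.17% against 3.28%. For PPARα+ERα and not PPARα+ERβ it was 11, or 23.9% against 28.8%, and for PPARα+ERβ and not PPARα+ERα it was 9, or 19.6% against 10.2%. In each comparison the order of the counts was the reverse of that with all peaks, among members by 1 or 2 genes and among all protein-coding genes as well. The cut kept 70.3% and 80.8% of the PPARα+ERα peaks in the windows. It kept 27.1% and 29.1% of the PPARα+ERβ peaks and 13.4% and 16.4% of the PPARα peaks. It thus lowers the counts of the groups unequally by construction, and the reversal is no separate finding.

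The coregulators that nuclear receptors recruit were set beside the family as a list of 11 genes. With PPARα+ERα 7 were occupied, beside 38.0% of protein-coding genes, with PPARα+ERβ 7, beside 46.6%, and with PPARα alone 8, beside 60.5%. Their windows range from 147 to 781 kb, against a median of 124 kb for protein-coding genes. NRIP1, which encodes the corepressor RIP140 and is a direct estrogen target in breast cancer cells, had 4 and 3 peaks with PPARα+ERα and 0 in every PPARα+ERβ and PPARα library, and 2 of its regions were in both PPARα+ERα libraries. NCOA3, encoding the coactivator SRC-3, had 5 and 10 peaks with PPARα+ERα, 8 and 8 with PPARα+ERβ, and 7 and 9 with PPARα alone. PPARGC1A, encoding PGC-1α, had 5 and 6 peaks with PPARα+ERα, 4 and 2 with PPARα+ERβ, and 5 and 6 with PPARα alone. CREBBP, a histone acetyltransferase, had 4 and 3 peaks with PPARα+ERα, 1 and 1 with PPARα+ERβ, and 1 and 4 with PPARα alone. Others went the other way. NCOA1, NCOR1 and PPARGC1B had no occupied region with PPARα+ERα, 3, 1 and 3 with PPARα+ERβ, and 5, 2 and 2 with PPARα alone. Of the 11, only NRIP1 had more peaks in both PPARα+ERα libraries than in either PPARα library, beside 11.6% of protein-coding genes.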

How the data were processed

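PPARα chromatin immunoprecipitation libraries of HepG2 cells were available as 6 peak lists, 2 for each of 3 groups; a library made without antibody has no list. The submitters' processing notes list MACS2 2.2.7.1, DiffBind 2.16, HOMER 4.11, Trim Galore 0.6.4, ChIPseeker 1.18.0 and Bowtie 1.0.1, with builds GRCh38.p13 and hg38. The role of each, the control and the peak threshold are not given in the sources used here. Each deposited line holds a peak with the authors' score (a whole number made from −log10 q), its fold, a ratio over local background, and the deposited −log10 p and −log10 q. Lists were called per library.

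Fold was read as (fragments + 1)/(background + 1) and p as the Poisson tail of the fragments. Solving the deposited fold and −log10 p for both gave a whole number of fragments and a local background for 100% of peaks, to within 0.001 of the deposited −log10 p. On chromosomes 1 to 22 and X, peaks of any lists sharing at least 1 bp formed a region. Genes came from the RefSeq table of GRCh38.p14, whose chromosome coordinates are those of hg38. The family, the coregulator list and the rules were chosen with earlier results of these data known. Every member is reported by role, with positions for every region occupied in 2 groups and for the 3 of highest rank by −log10 q within their lists among regions differing between groups, and for PPARA, ESR1 and ESR2 always. Other members' regions are given as counts. A few results that the rule names are not reported here. Regions within 1 kb of a start, and single further regions of HNF4A, NR1H4, NR5A2, PGR, RARB and RORA, were named after their values were seen. Peaks per window were compared over libraries by an exact two-sided permutation test with Benjamini-Hochberg adjustment. p-values and SDs measure only the spread between libraries, which may be technical. Few fragments give imprecise calls: 4 to 36 fragments per peak in PPARα+ERα and up to 182 in PPARα. Steps were tested on simulated data. Alternatives were the gene span without 50 kb, a −log10 q of at least 5, lists of equal length, a stricter overlap, low local background, and leaving out each library. Matplotlib 3.10.9, SciPy 1.17.1, NumPy 2.4.6 and pandas 2.3.3 were run under Python 3.11.15.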

Additional observations from a re-analysis of the deposited data

How the results depend on the processing

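A stricter overlap for joining peaks into regions left all 9 counts of members at their values. Using the gene span alone, members occupied were 11 with PPARα+ERα (23.9% against 15.0% of protein-coding genes), 15 with PPARα+ERβ (32.6% against 18.2%) and 20 with PPARα alone (43.5% against 24.8%). With that span, 11 members had a region of PPARα+ERα and not PPARα (23.9% against 14.5%) and 19 had the opposite (41.3% against 23.9%). For PPARα+ERβ and PPARα the counts were 2 (4.35% against 3.75%) and 10 (21.7% against 9.79%), and for PPARα+ERα and PPARα+ERβ 11 (23.9% against 14.1%) and 14 (30.4% against 16.5%). With local background of at most 3 times, members occupied were 11 with PPARα+ERα, 10 with PPARα+ERβ and 12 with PPARα alone. The differing members were then 11 and 10 for PPARα+ERα against PPARα, 3 and 1 for PPARα+ERβ against PPARα, and 11 and 9 for PPARα+ERα against PPARα+ERβ, so that the larger count changed sides in all 3 comparisons, as it did over all protein-coding genes. This cut kept the largest share of peaks with PPARα+ERα and the smallest with PPARα alone, so it weighs on the order by construction. The cause of the change of sides was not tested. With a −log10 q of at least 5, or lists of equal length, the 9 counts stayed within 1.5 times their values, although occupied members fell to 12 and 15 with PPARα+ERα. With lists of equal length, 24 members were occupied with PPARα+ERβ (52.2% against 42.1% of protein-coding genes) and 25 with PPARα alone (54.3% against 40.6%). These 2 groups were then nearly level among members, and over all protein-coding genes their order turned.

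Leaving out a library makes the other library of its group decide alone, which by construction raises the count of that group's calls. Members occupied then ranged over 35 to 38 with PPARα+ERα (68.8% to 72.7% of protein-coding genes) and 36 to 42 with PPARα alone (69.2% to 83.8%), and were 37 with PPARα+ERβ without either library (62.5% to 73.1%). Members with a region of PPARα+ERα and not PPARα ranged from 18 to 38, and of PPARα and not PPARα+ERα from 34 to 42. Without PPARα+ERα library 1 these were 38 and 34 (71.1% and 59.5% of protein-coding genes), which turns the order, and without PPARα+ERα library 2 they were 34 and 34 (67.1% and 59.6%). Those of PPARα+ERβ and not PPARα ranged from 7 to 21, and of PPARα and not PPARα+ERβ from 18 to 33. Without PPARα+ERβ library 1 these were 21 and 18 (38.8% and 32.0%), which also turns the order, without PPARα+ERβ library 2 they were 13 and 22 (28.2% and 40.7%), and without PPARα library 1 they were 10 and 33 (15.8% and 66.2%). Without PPARα library 2 they were 7 and 19 (19.2% and 36.7%). Those of PPARα+ERα and not PPARα+ERβ ranged from 18 to 38, and of PPARα+ERβ and not PPARα+ERα from 27 to 37. Without PPARα+ERα library 1 these were 38 and 27 (70.1% and 44.2%), and without PPARα+ERα library 2 they were 34 and 28 (66.2% and 44.5%), both with the order turned. No paired analysis was possible because library numbers follow only the order of deposit and no model was fitted. Depth is known only through the genome-wide background, and calls of 4 to 10 fragments, common with PPARα+ERα, limit what the absence of a call in the other library can show.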
